A study of Mus musculus with 12 samples.

Results

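Glycolysis turns glucose into pyruvate in the cytosol, and several of its steps are catalysed by enzymes that exist as isoforms encoded by separate genes. 9 of these genes are described here: Pfkl, Pfkm and Pfkp (phosphofructokinase), Aldoa (aldolase), Eno1 and Eno3 (enolase), Pklr and Pkm (pyruvate kinase) and Ldha (lactate dehydrogenase). They were taken by gene symbol from the deposited count table. The 9 symbols matched 10 of its 54532 rows, because a second Ensembl gene also carries the symbol Aldoa. All 10 rows are accounted for below.

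RNA was sequenced from liver and from subcutaneous fat of mice injected in a tail vein at 10 weeks of age with an adeno-associated virus of serotype 8 and kept for 16 weeks on a low-fat diet. The vector either carried full-length human HKDC1, a hexokinase, under the hepatocyte promoter TBG, that of thyroxine-binding globulin (hHKDC1 OE), or was the AAV8-TBGp control vector (null). 3 libraries were deposited for each of liver null, liver OE, fat null and fat OE. The sequenced fat came from male mice. The mouse strain, and whether a liver and a fat library came from the same animal, are not given in the sources used here. The vector was given to whole animals but its promoter restricts expression to liver, so fat OE means fat of mice with an overexpressing liver. The OE libraries numbered 2 and 3 of both tissues carry a description that calls them knockouts, while their titles and treatment labels say overexpression, and they were grouped by title. Reads of the human transgene were not analysed here, so the labels were not checked against it, and the mouse gene Hkdc1 had 1 to 8 counts in each liver library and 0 to 7 in each fat library.

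Total counts ran from 15496019 to 19954971 per library. Of 10 adipocyte markers, the summed level was 30092 to 44641 CPM (counts scaled to a common library total) in fat and 2182 to 3011 CPM in liver, most of it from Car3. Adipoq, the gene of adiponectin, had at most 5 counts in any liver library. The fat libraries were not alike, however. 18 genes of skeletal muscle summed to 27960, 33369 and 870 CPM in the 3 fat null libraries and to 24096, 1653 and 4264 CPM in the 3 fat OE libraries, against 38.0 to 71.3 CPM in liver. Fat null 1, fat null 2 and fat OE 1 are called muscle-high below, from these markers. B cell markers summed to 2.26 to 4.35 CPM in fat null and 57.9 to 1010 CPM in fat OE, and T cell markers to 5.98 to 17.0 and 46.6 to 655 CPM. Hepatocyte markers were also read in fat, at 2509, 2530 and 8087 CPM in null and 2382, 859 and 1309 CPM in OE. In bulk samples, fewer cells of a type and less RNA per cell cannot be told apart.

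Liver and muscle are the textbook pair for glycolytic isoforms. Hepatocytes use the liver pyruvate kinase PKLR and the liver phosphofructokinase PFKL, and can run most of the pathway backwards to make glucose. Muscle fibres use PFKM, aldolase A, the beta enolase ENO3 and PKM, while ENO1, PFKP and LDHA occur in many cell types. Adipocytes use glycolysis to supply glycerol 3-phosphate and acetyl groups for fat storage.

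The stretches of 250 bases upstream of RefSeq transcription starts (build GRCm38.p6) are shown for the liver pyruvate kinase gene and for 3 members with other patterns, a choice made after their values were seen, to set genes with different levels in the 2 tissues side by side. Lower case is used throughout and capitals mark motif matches. The motifs were searched on both strands: a carbohydrate response element (CACGNG, any 5 bases, CNCGTG), the E-box CACGTG, the hypoxia core ACGTG, which lies inside an E-box, the GC box GGGCGG, the TATA box TATAAA, the myogenic E-box CAGCTG and a MEF2 site.
Pklr, chr3:89136373-89136622, plus strand: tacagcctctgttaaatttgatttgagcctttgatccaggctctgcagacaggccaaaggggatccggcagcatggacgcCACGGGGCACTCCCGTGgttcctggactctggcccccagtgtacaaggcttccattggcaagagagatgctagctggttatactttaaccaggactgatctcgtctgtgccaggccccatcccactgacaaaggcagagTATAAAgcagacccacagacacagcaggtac
Ldha, chr7:46845554-46845803, plus strand: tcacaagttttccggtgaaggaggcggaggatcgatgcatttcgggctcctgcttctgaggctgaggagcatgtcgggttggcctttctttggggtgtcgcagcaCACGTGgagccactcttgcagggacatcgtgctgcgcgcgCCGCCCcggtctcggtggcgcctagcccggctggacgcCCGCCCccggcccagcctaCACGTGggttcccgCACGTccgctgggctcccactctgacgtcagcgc
Pkm, chr9:59656326-59656575, plus strand: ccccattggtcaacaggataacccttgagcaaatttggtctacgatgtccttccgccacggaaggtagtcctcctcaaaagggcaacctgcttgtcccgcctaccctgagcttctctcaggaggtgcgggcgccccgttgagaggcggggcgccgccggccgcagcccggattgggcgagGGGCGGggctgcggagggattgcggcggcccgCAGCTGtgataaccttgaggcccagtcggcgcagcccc
Eno3, chr11:70656926-70657175, plus strand: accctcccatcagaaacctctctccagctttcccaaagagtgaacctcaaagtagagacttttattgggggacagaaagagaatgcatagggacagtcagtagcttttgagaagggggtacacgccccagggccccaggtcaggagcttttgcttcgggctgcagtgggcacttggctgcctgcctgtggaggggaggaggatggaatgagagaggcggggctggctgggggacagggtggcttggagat
The Pklr window held the carbohydrate response element from 170 to 154 bases before the start and a TATA box from 31 to 26. Among 32851 RefSeq promoter windows of the same length, 0.0396% held that element and 12.4% the TATA box. Of the 19 windows found for the members it was also the only one with either of them. The Ldha window held 2 E-boxes (6.02% of all windows held any), 5 hypoxia cores, of which 4 lay inside the E-boxes (16.6% of windows held any), and 2 GC boxes (32.7%). Its ratio of observed to expected CpG was 0.886, against a median of 0.373 over all windows. The Pkm window had a ratio of 0.763, 1 GC box and 1 myogenic E-box (13.0%), and the Eno3 window a ratio of 0.156 and no match to any of these motifs. These matches are descriptions of letters only.

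In liver, 1 isoform made up nearly all of the transcripts of pyruvate kinase, enolase and lactate dehydrogenase, and in fat another took its place at pyruvate kinase and, in part of the libraries, at enolase. Shares are given within a family of isoforms from the deposited FPKM, so that isoforms can be compared within a library. These are fragment counts scaled by gene length and by a size factor for each library, which is not its total count. 8 shares were compared, one for each member except Pklr, whose share is the remainder of Pkm. The share of Aldoa is counted among the 8 but not reported here. With 3 libraries against 3, the smallest two-sided p of an exact permutation test is 0.1, so no single share could pass a threshold of 0.05 in the null libraries.

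**Figure D1:**
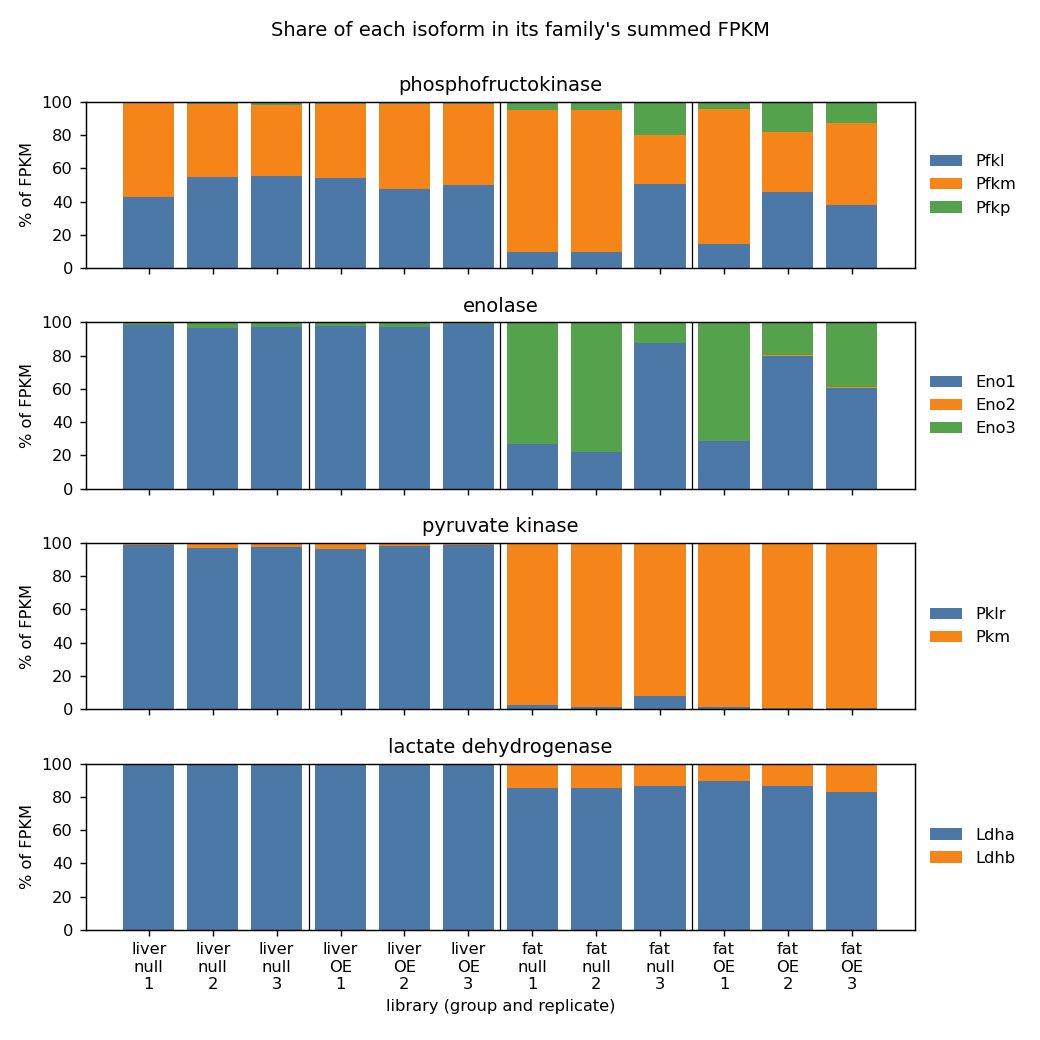
Percent of the summed FPKM of 4 enzyme families taken by each isoform, for 12 libraries in 4 groups divided by vertical lines. Pklr fills the liver bars and Pkm the fat bars of pyruvate kinase, while the Eno3 share in fat runs from 12.1% to 78.1%.

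Pyruvate kinase, which makes pyruvate and ATP in the last step, showed the sharpest exchange. Pklr lies on chromosome 3, positions 89136142 to 89146784, plus strand, and encodes the liver and red cell enzyme. Its level was 207, 149 and 130 FPKM in liver null and 3.31, 1.81 and 4.87 FPKM in fat null. Pkm lies on chromosome 9, 59656368 to 59679375, plus strand, and gives the M1 and M2 enzymes by alternative splicing, which gene counts cannot separate. It had 2.65, 4.71 and 3.58 FPKM in liver null and 119, 126 and 58.6 FPKM in fat null, so the tissues did not overlap for either gene. Pkm made up 2.34% ± 0.947 (SD, n = 3) of pyruvate kinase FPKM in liver null and 96.1% ± 3.30 in fat null (two-sided exact permutation p = 0.1, adjusted over 8 shares 0.133). Over both vectors, with 6 libraries against 6, the shares were 2.23% ± 0.904 and 97.5% ± 2.65 (two-sided exact permutation p = 0.0022, adjusted 0.0029). The family as a whole differed less, with a summed 166 ± 39.1 FPKM in liver null and 105 ± 35.8 FPKM in fat null. Counting did not use strand, and 22.0% of the exon bases of Pklr lie under the opposite-strand gene Hcn3, while 15.3% of those of Pkm are shared with the same-strand annotation Gm49759.

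Pklr reads in fat went together with hepatocyte reads. Per 1000 counts of Alb, the gene of albumin, the liver libraries held 4.57 to 10.4 counts of Pklr and the fat libraries 4.33 to 8.62. Alb itself had 8463 to 89742 counts in fat and 713600 to 1216435 in liver. The tissues therefore overlapped in this ratio. Whether the Pklr reads of fat came from liver RNA was not tested.

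Aldoa encodes the muscle type of aldolase, which splits fructose 1,6-bisphosphate, and was far higher in fat. It lies on chromosome 7, 126795234 to 126800751, minus strand. It stood at 47.8, 61.5 and 54.6 FPKM in liver null and 904, 999 and 424 FPKM in fat null, the highest member of fat, with the muscle-low library at the bottom. The second row named Aldoa (ENSMUSG00000114515, chromosome 7, 126800790 to 126809108, minus strand, directly upstream) had 352, 388 and 17 counts in fat null and 1, 0 and 0 in liver null. In fat OE it had 173, 12 and 48 counts, so the 3 muscle-high libraries held the highest values. How reads shared between the rows were divided is not known.

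Phosphofructokinase commits sugar to glycolysis and is the main control point of the pathway. Pfkl lies on chromosome 10, 77986947 to 78010083, minus strand, Pfkm on chromosome 15, 98092589 to 98132451, plus strand, and Pfkp, the platelet type, on chromosome 13, 6579768 to 6648777, minus strand. Liver null libraries had 6.11, 7.13 and 6.51 FPKM of Pfkl and 8.16, 5.70 and 5.04 FPKM of Pfkm, so the liver type and the muscle type overlapped in level. Their shares in liver null were 50.8% ± 7.12 and 47.8% ± 7.94 (SD, n = 3). Pfkp was nearly absent there, at 0.0646, 0.204 and 0.254 FPKM from 10, 31 and 41 counts. Fat null had 12.6, 13.9 and 15.04 FPKM of Pfkl and 6.18, 6.82 and 5.93 FPKM of Pfkp, in both cases above every liver library. Pfkm, by contrast, had 108, 126 and 8.81 FPKM, with the low value in the muscle-low library. There Pfkl held 50.5%, Pfkm 29.6% and Pfkp 19.9% of the family, against 9.89%, 85.3% and 4.86% in fat null 1. The Pfkp share was 1.36% ± 0.561 in liver and 10.9% ± 7.16 in fat over both vectors, with no overlap (two-sided exact permutation p = 0.0022, n = 6 in each tissue). The Pfkm share overlapped between the tissues, at 47.9% ± 5.42 and 61.2% ± 25.9 (exact permutation p = 0.214, n = 6 in each). The Pfkl share was 50.7% ± 4.99 in liver and 28.0% ± 18.8 in fat (exact permutation p = 0.0152, adjusted 0.0173, n = 6 in each), with overlap, and in the null libraries alone its exact permutation p was 0.2. Of the exon bases of Pfkm, 10.8% are shared with other annotations.

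Enolase makes phosphoenolpyruvate. Eno1 lies on chromosome 4, 150236721 to 150248879, plus strand, and Eno3 on chromosome 11, 70657202 to 70662513, plus strand. Eno1 was 182, 146 and 149 FPKM in liver null and 94.9, 86.2 and 95.3 FPKM in fat null, which is lower in every fat library. Eno3 was 3.19, 4.67 and 4.63 FPKM in liver null and 259, 308 and 13.2 FPKM in fat null. Eno1 took 97.4% ± 0.765 (SD, n = 3) of enolase FPKM in liver null. In fat null its share was 26.8%, 21.8% and 87.6%, and in fat OE 28.7%, 80.0% and 60.3%. The muscle-high libraries are the ones at the low end, from 21.8% to 28.7%, and in the 3 others Eno1 remained the main enolase. Over both vectors the tissues did not overlap in the Eno1 share (97.7% ± 0.774 against 50.9% ± 29.0, two-sided exact permutation p = 0.0022, n = 6 in each). Eno2, the neuronal enolase, held at most 0.747%. Eno1 has a near-identical copy, Eno1b, whose reads (169 to 394 counts a library) may in part belong to Eno1.

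Lactate dehydrogenase converts pyruvate to lactate and back. Ldha lies on chromosome 7, 46841475 to 46855627, plus strand. It was the highest member of liver null, at 382, 434 and 406 FPKM, and had 323, 298 and 222 FPKM in fat null. Ldhb, the heart-type subunit, was 2.04, 2.02 and 2.69 FPKM in liver null and 54.5, 51.6 and 35.0 FPKM in fat null. The Ldha share was 99.4% ± 0.0993 (SD, n = 3) in liver null and 85.7% ± 0.605 in fat null (two-sided exact permutation p = 0.1, adjusted 0.133). Over both vectors it was 99.4% ± 0.115 and 86.0% ± 2.08 (exact permutation p = 0.0022, n = 6 in each). Within fat it was 85.6%, 85.2% and 86.4% in null and 89.5%, 86.2% and 83.2% in OE, so muscle-high and muscle-low libraries overlapped. A processed copy, Ldha-ps2, took 13 to 75 counts a library.

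**Figure D2:**
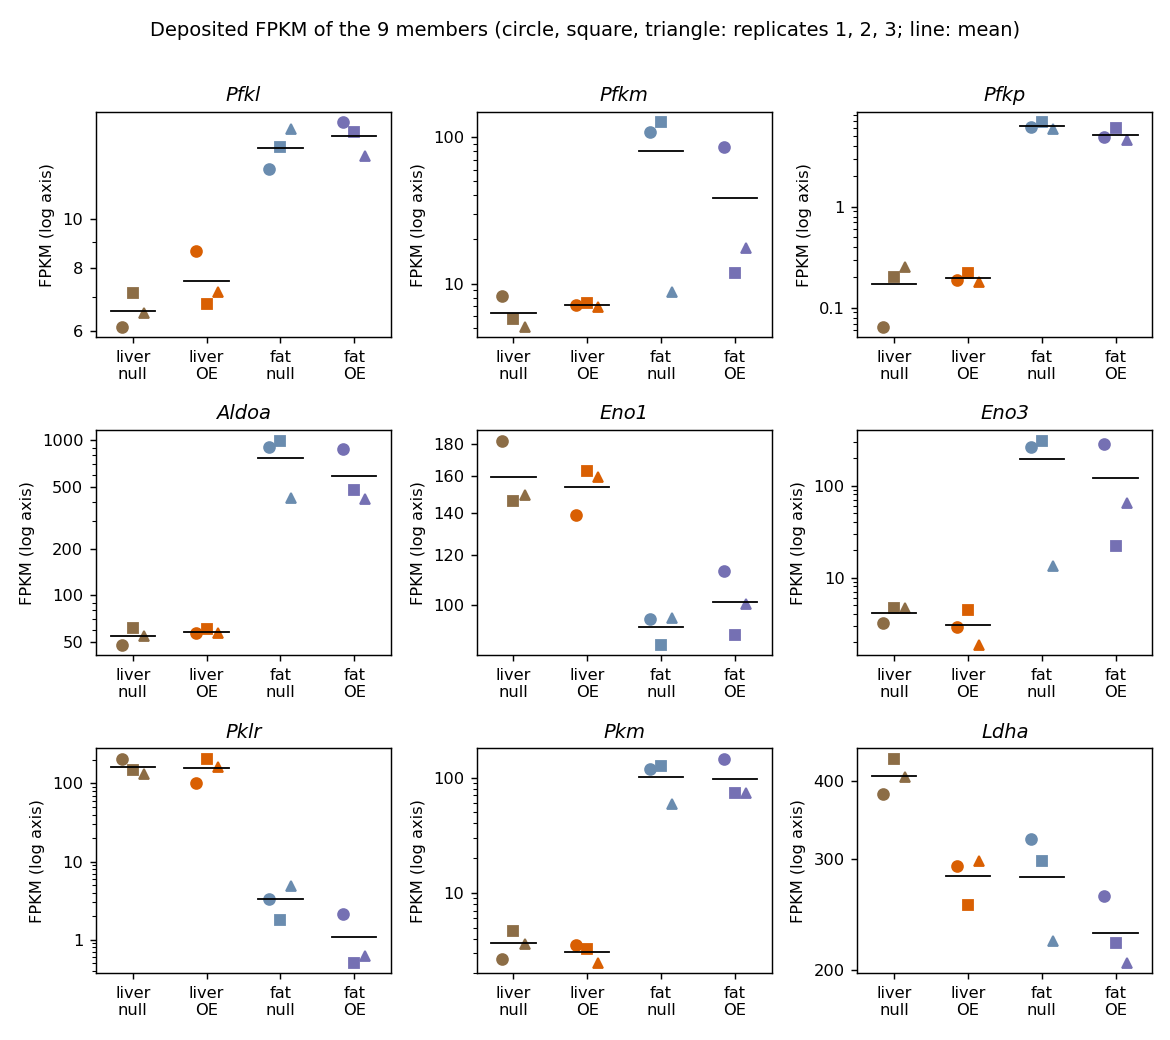
Deposited FPKM of each member on a log axis, 1 point a library and a line at the mean of 3, by tissue and vector. Pklr sits lower and Pfkl, Pfkm, Pfkp, Aldoa, Eno3 and Pkm higher in all fat libraries than in all liver libraries, and Ldha in liver OE (254 to 299 FPKM) lies under liver null (382 to 434 FPKM).

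Ranked by mean FPKM in liver null, the order was Ldha, Pklr, Eno1, Aldoa, Pfkl, Pfkm, Eno3, Pkm and Pfkp. The neighbours Pklr and Eno1, Pfkl and Pfkm, and Eno3 and Pkm overlapped between libraries, and the other neighbours did not. In fat null the order was Aldoa, Ldha, Eno3, Pkm, Eno1, Pfkm, Pfkl, Pfkp and Pklr. There each neighbour from Ldha to Pfkl overlapped with the next, while Aldoa stood above and Pfkp and Pklr stood apart at the bottom. The members of fat were thus ordered less firmly than those of liver.

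Tested gene by gene between null fat and null liver, all 10 rows passed edgeR's quasi-likelihood test at an adjusted p under 0.05, 7 higher and 3 lower in fat. Over all 15259 genes tested, 64.3% passed, 33.8% higher and 30.5% lower in fat, so a call alone says little about these genes. 1 of the 7, the second Aldoa row, had 0 or 1 counts in each liver null library and entered the test only through fat, so its direction was fixed and no fold is given for it. The median log2 fold change was 3.65, that of Pfkm, over the other 9 rows and 0.09 over all genes. Pklr was lower by a log2 fold change of -5.66 (SE 0.41, edgeR adjusted p = 1.47e-05). Higher in fat were Eno3 (log2 5.50, SE 1.05, adjusted p = 0.00226), Pfkp (5.12, SE 0.39, adjusted p = 1.87e-05), Pkm (4.75, SE 0.39, adjusted p = 2.76e-05), Aldoa (3.78, SE 0.38, adjusted p = 6.89e-05), Pfkm (3.65, SE 0.85, adjusted p = 0.00597) and Pfkl (1.01, SE 0.13, adjusted p = 0.000287), the 10th row being the second Aldoa gene. Of the 9 rows with a fold, Eno3 and Pfkm had the widest errors. Eno1 (-0.84, SE 0.18, adjusted p = 0.0036) and Ldha (-0.59, SE 0.22, adjusted p = 0.0459) were lower in fat by this scaling.

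The call of Ldha was close to the threshold: it was lost with DESeq2's size factors, without a filter, with at least 10 counts in every library, with the replicate block (edgeR adjusted p = 0.0637) and with 5 of the 6 libraries left out in turn (edgeR adjusted p up to 0.124). Scaled by library size alone, where the all-gene median was 0.98 in place of 0.09, Eno1 and Ldha changed sign to 0.05 and 0.29, and neither passed, so a direction for these 2 genes depends on the scaling while their shares do not. Fat null 1 and 2 were also left out, a choice made after seeing the muscle markers. That leaves a lone fat library assumed to vary as liver does, so no call is read from it. There the difference of Pfkm was 0.47 in place of 3.65 and that of Eno3 1.64 in place of 5.50. Pkm was at 3.99, Aldoa at 2.94, Pfkp at 5.06, Pfkl at 1.17 and Pklr at -5.07. Eno1 was at -0.76 and Ldha at -0.89, against -0.84 and -0.59 with all null libraries.

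**Figure D3:**
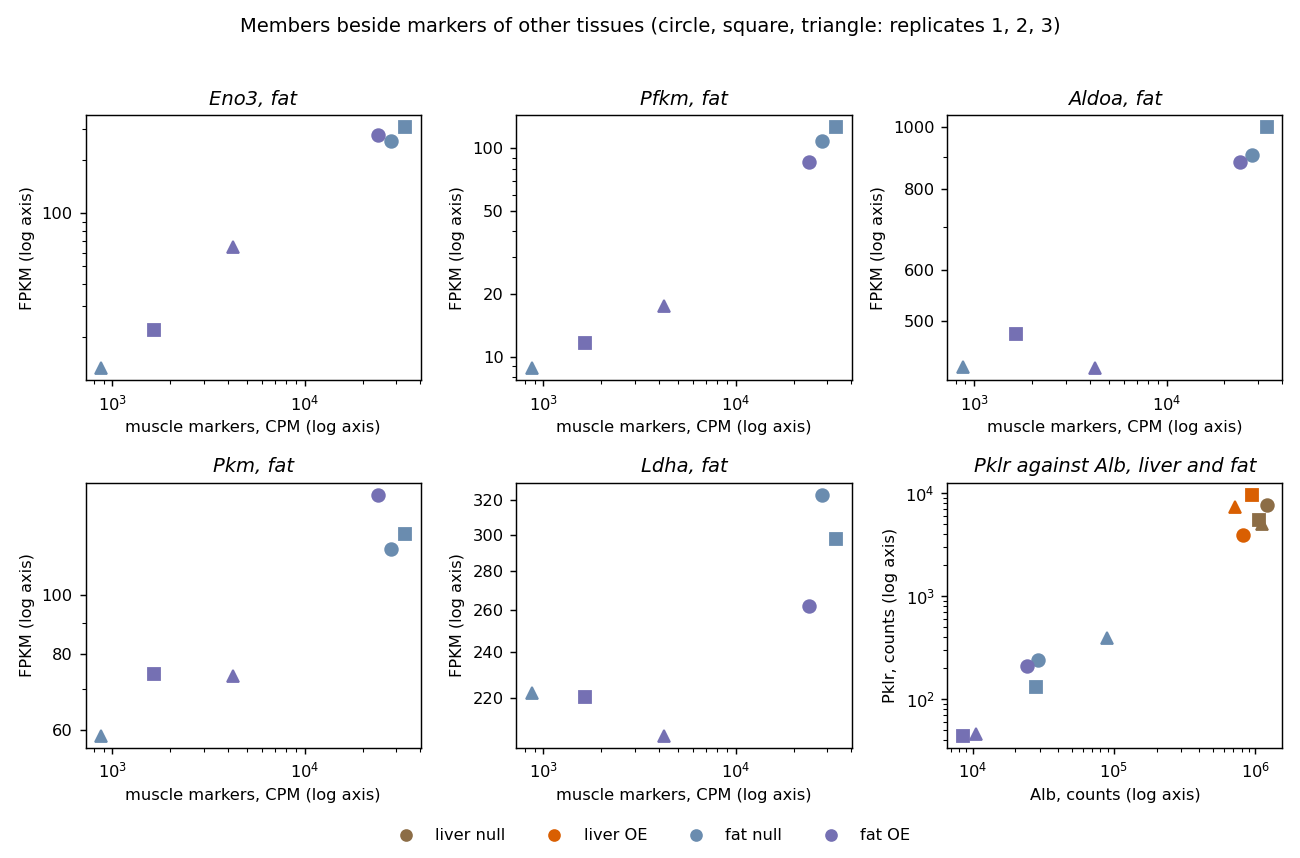
FPKM of 5 members against the summed CPM of 18 muscle markers in the 6 fat libraries, and Pklr counts against Alb counts in all 12 libraries, all on log axes. Eno3, Pfkm, Aldoa, Pkm and, with a smaller gap, Ldha are highest in the 3 libraries with 24096 to 33369 CPM of muscle markers. The Pklr points of both tissues lie along 1 band.

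Within fat, the genes closest in pattern to Pfkm over the 6 libraries were Ldb3, Ak1 and Jph2 (Pearson r 0.9998, 0.9988 and 0.9985 of log2 CPM among 13619 genes), and those closest to Eno3 were Naa20, Ckm and Fam131a (0.9986, 0.9967 and 0.9964). Those closest to Aldoa were Dusp27, Phkg1 and Fhl3 (0.9934, 0.9929 and 0.992). Ckm, the muscle creatine kinase, Ldb3 of the Z-disc and Jph2 of muscle membrane junctions are known from striated muscle. The 6 libraries fall into a muscle-high and a muscle-low set of 3, so these values describe that division. The genes closest to Pfkl were Mrps24, Cdk11b and Baiap3, and those closest to Eno1 were Zswim3, Hrh2 and Edc4.

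Other genes of the pathway were counted in the same comparison, where 64.3% of all genes tested passed, 33.8% higher and 30.5% lower in fat, so the counts below are not read as particular to these lists. Some genes with hardly any reads in liver null could enter this test through fat alone, which fixed their direction. The counts include them, and no fold is given for those named. Of 15 further glycolysis enzymes tested, 5 passed as higher and 5 as lower in fat. The hexokinase Hk1 (log2 2.77, SE 0.19, edgeR adjusted p = 1.22e-05) and the lactate dehydrogenase Ldhb (4.33, SE 0.24, adjusted p = 5.68e-06) were among the higher. Another hexokinase, Hk2, was 1 of the genes that entered through fat, at 0.852 ± 0.874 CPM in liver null and 118.5 ± 27.0 CPM in fat null (SD, n = 3). All 7 genes that set fructose 2,6-bisphosphate or reverse the phosphofructokinase step passed, 4 higher and 3 lower. Pfkfb3, the strong activator, was at 3.13 (SE 0.27, edgeR adjusted p = 3.37e-05). Pfkfb1, the liver form, was at -1.47 (SE 0.16) and Fbp1, the gluconeogenic phosphatase, at -5.56 (SE 0.47). Pfkfb4 could enter through fat alone, at 0.639 ± 0.240 CPM in liver null and 20.7 ± 4.37 CPM in fat null. Of 16 genes of pyruvate and lactate handling, 5 passed as higher and 8 as lower. Pdk4, which switches off pyruvate dehydrogenase, was higher by 4.89 (SE 0.41), and Ldhd and Pdp2 were lower at -3.00 (SE 0.18) and -2.13 (SE 0.14). Pdp1, at 0.610 ± 0.280 CPM in liver null and 14.4 ± 5.44 CPM in fat null, could also enter through fat alone. Of 11 regulators, 0 passed as higher and 4 as lower by edgeR, among them the hepatocyte factor Hnf4a (-5.49, SE 0.49) and Mlxipl (-1.69, SE 0.31, adjusted p = 0.00191), which encodes the carbohydrate response element binding protein, with its partner Mlx (-1.40, SE 0.16). The splicing factor Ptbp1, known to favour the M2 form of Pkm, did not pass (-0.26, SE 0.16, adjusted p = 0.202).

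The next question was whether hepatic HKDC1 expression altered these genes in liver. No member passed. Of 13351 genes tested by edgeR, 0% passed, while 927 had an unadjusted p under 0.05 and DESeq2 called 45 as higher and 49 as lower, none of them a member. 9 of the 10 rows were tested, the second Aldoa row having 0 to 5 counts a liver library.

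Ldha came nearest. It had 382, 434 and 406 FPKM in null and 293, 254 and 299 FPKM in OE, so every OE library lay under every null library. The log2 fold change was -0.50 (SE 0.16, 95% interval -0.85 to -0.15), a level 1.42-fold lower in OE, with an unadjusted p of 0.0104 and an adjusted p of 0.554 by edgeR. It was the only 1 of 9 members whose groups did not overlap, against 12.5% of all genes tested. Leaving out 1 library at a time kept the estimate between -0.56 and -0.44, and over all alternatives the adjusted p ran from 0.133 with DESeq2 to 0.995 with edgeR without liver null 2. In the same libraries the 10 hepatocyte markers summed to 112675 to 117145 CPM in null and 79893 to 98730 CPM in OE, and 8 macrophage markers to 120 to 183 and 193 to 310 CPM, both without overlap. Of the 10 hepatocyte markers Alb was the only 1 whose groups did not overlap (log2 -0.62, SE 0.22, edgeR adjusted p = 0.613), and 5 had a lower and 5 a higher estimate in OE, the highest being Fgb, a fibrinogen gene (0.45, SE 0.24, adjusted p = 0.784). The part of either marker list in the Ldha difference was not tested. The Ldha share of lactate dehydrogenase was 99.4% ± 0.0993 in null and 99.3% ± 0.102 in OE (SD, n = 3, two-sided exact permutation p = 0.2).

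The pyruvate kinases of liver did not pass. Pklr had 207, 149 and 130 FPKM in null and 101, 208 and 163 FPKM in OE, with the lowest and the highest library both in OE, and its log2 fold change was 0.00 (SE 0.27, 95% interval -0.61 to 0.61). Pkm had 2.65, 4.71 and 3.58 FPKM in null and 3.50, 3.26 and 2.45 FPKM in OE (-0.22, SE 0.24, interval -0.77 to 0.33, edgeR adjusted p = 0.903). Pkm made up 2.34% of the family in null and 2.12% ± 1.05 in OE (exact permutation p = 1, n = 3 in each). Its level rests on 153 to 267 counts a library.

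The remaining members of liver did not pass the test. In OE, Pfkl had 8.62, 6.80 and 7.16 FPKM (log2 fold change 0.22, SE 0.15), Pfkm 7.12, 7.32 and 6.91 FPKM (0.21, SE 0.19) and Pfkp 0.187, 0.224 and 0.181 FPKM (0.20, SE 0.51). Aldoa had 57.4, 60.7 and 57.0 FPKM (0.13, SE 0.15) and Eno1 139, 163 and 159 FPKM (-0.02, SE 0.16). Eno3 had 2.93, 4.41 and 1.84 FPKM (-0.41, SE 0.35). Each overlapped with the null libraries and had an edgeR adjusted p of at least 0.826. The tightest interval, that of Pfkl, ran from -0.11 to 0.55 and the widest, that of Pfkp, from -0.94 to 1.34. With 1 library left out the estimate of Eno3 ran from -0.79 to -0.14 and that of Pfkm from 0.09 to 0.42. The groups overlapped in all 8 shares between the vectors, and their exact permutation p ran from 0.2 to 1 (n = 3 in each, 0.6 to 1 after adjustment).

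Other genes of the pathway in liver did not pass either. 13 further glycolysis enzymes were tested with 0 calls by edgeR and 1 unadjusted p under 0.05, that of Gapdh, glyceraldehyde-3-phosphate dehydrogenase, at 5.45 ± 2.504 CPM in null and 85.6 ± 46.7 in OE (SD, n = 3 libraries, log2 3.97, SE 0.46, edgeR adjusted p = 0.0573). Gapdh has many near-identical copies in the mouse genome and its level is uncertain. Of 14 genes of pyruvate and lactate handling, 0 were called and 11 had a lower estimate in OE, among them Pdk4 (-1.58, SE 0.33, adjusted p = 0.355), the monocarboxylate carrier Slc16a7 (-0.61, SE 0.18, adjusted p = 0.536) and the mitochondrial pyruvate carrier Mpc1 (-0.48, SE 0.16, adjusted p = 0.595). 4 of the 14 had an unadjusted p under 0.05, the fourth being Ldhd with a higher estimate in OE (0.50, SE 0.21, adjusted p = 0.678). The median of the 14 was -0.16, against 0.0064 over all genes. In the flux control list 0 of 6 were called, with Pfkfb3 at -0.79 (SE 0.29, adjusted p = 0.621), and among 11 regulators 0, with Srsf3 at -0.38 (SE 0.15, adjusted p = 0.646) and Mlxipl at 0.60 (SE 0.33, adjusted p = 0.788). DESeq2 calls were counted over all genes and over the members alone, not over these lists.

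**Figure D4:**
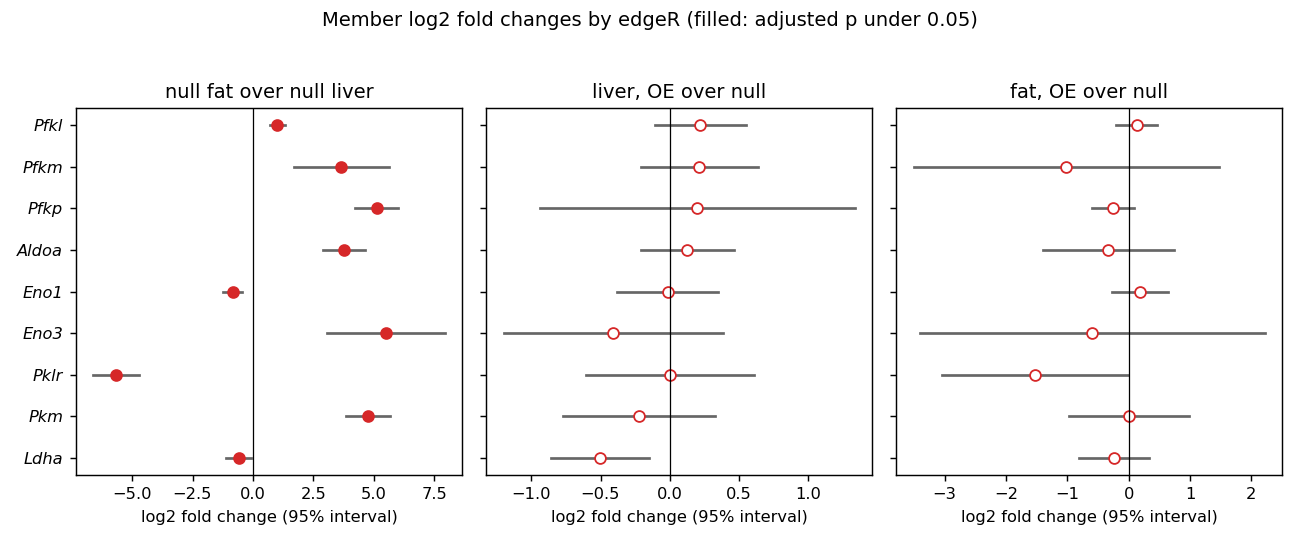
Log2 fold change of each member with its 95% interval by edgeR in 3 comparisons, filled where the adjusted p is under 0.05. All 9 points are filled between tissues and none between vectors, and the intervals of Pfkm and Eno3 are wide in fat.

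In fat, no member passed between OE and null. edgeR called 0% of 16380 genes, with 2903 at an unadjusted p under 0.05, while DESeq2 called 1253 as higher and 193 as lower, again no member. All 10 rows overlapped between the groups, whereas 22.7% of all genes tested did not.

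Pklr had the smallest p. It had 238, 130 and 389 counts in fat null and 210, 44 and 46 in fat OE (3.31, 1.81 and 4.87 against 2.14, 0.5 and 0.609 FPKM), so OE 1 lay within the null range and OE 2 and 3 under it. The log2 fold change was -1.53 (SE 0.64, 95% interval -3.05 to -0.02), with an unadjusted p of 0.0482 and an adjusted p of 0.279 by edgeR. The hepatocyte markers of these libraries, 2509, 2530 and 8087 CPM in null and 2382, 859 and 1309 CPM in OE, were lowest in the same OE 2 and 3. Pklr is also the enzyme of red cells, and 7 red cell markers summed to 799.8, 529.8 and 796 CPM in null and 253, 467 and 432 CPM in OE, which did not overlap. The part of either marker list in the Pklr difference was not tested. Per 1000 counts of Alb, Pklr was 8.23, 4.63 and 4.33 in null and 8.62, 5.20 and 4.37 in OE, and these ranges overlapped. With 1 library left out the estimate of Pklr ran from -2.54 (without OE 1) to -1.18 (without OE 2).

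Within fat, the levels of Eno3, Pfkm, Aldoa and Pkm divided by the muscle markers. Fat null 1 and 2 stand both in this division and in the comparison between tissues, so the 2 are not separate observations. Eno3 had 259, 308 and 13.2 FPKM in null and 280, 21.8 and 64.6 FPKM in OE (log2 -0.59, SE 1.19, 95% interval -3.41 to 2.22). Pfkm had 108, 126 and 8.81 FPKM in null and 85.8, 11.7 and 17.4 FPKM in OE (-1.01, SE 1.06, interval -3.50 to 1.48). In both genes the 3 muscle-high libraries, 2 null and 1 OE, stood above the other 3. With 1 library left out the estimate of Eno3 ran from -2.12 (without OE 1) to -0.10 (without OE 2), and that of Pfkm from -2.45 (without OE 1) to -0.58 (without null 2). Aldoa (904, 999 and 424 against 882, 478 and 422 FPKM) and Pkm (119, 126 and 58.6 against 146, 74.1 and 73.6 FPKM) kept the same division with smaller gaps. Their log2 fold changes were -0.33 (SE 0.45) and 0.01 (SE 0.41). With the muscle marker level as a covariate, an alternative added after seeing the data, Eno3 moved from -0.59 to 0.27 and Pfkm from -1.01 to -0.29 (edgeR adjusted p = 0.489 and 0.429), and 0 of 10 rows passed. With the 3 muscle-high libraries left out, the estimate was 1.75 for Eno3 and 0.76 for Pfkm. That fit holds 1 null library, assumed to vary as the 2 OE libraries do, and no call is read from it.

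4 members stood in a narrow range in fat. Pfkl had 12.6, 13.9 and 15.04 FPKM in null and 15.5, 14.8 and 13.3 in OE (log2 0.13, SE 0.14, 95% interval -0.20 to 0.46). Pfkp had 6.18, 6.82 and 5.93 against 4.86, 5.98 and 4.52 FPKM (-0.25, SE 0.15, interval -0.60 to 0.09). Eno1 had 94.9, 86.2 and 95.3 against 113, 89.3 and 100 FPKM (0.19, SE 0.19, interval -0.27 to 0.65). Ldha had 323, 298 and 222 against 262, 221 and 205 FPKM (-0.24, SE 0.24, interval -0.81 to 0.33). In Ldha, too, the 3 muscle-high libraries stood above the muscle-low ones. Its estimate was -0.15 with the muscle marker level as a covariate. With the 3 muscle-high libraries left out, which leaves a lone null library, it was -0.03. All 4 overlapped between the vectors, with edgeR adjusted p from 0.389 to 0.632. The shares of the isoforms overlapped as well, with 8 exact permutation p from 0.2 to 1 (n = 3 in each, 0.8 to 1 after adjustment), and the Pkm share was 96.1% ± 3.30 in null and 99.0% ± 0.408 in OE.

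Among the other genes of the pathway in fat, 0 of 15 glycolysis enzymes, 0 of 7 flux control genes, 0 of 16 pyruvate and lactate genes and 0 of 11 regulators passed by edgeR, with 3, 1, 1 and 3 at an unadjusted p under 0.05. Eno2, the neuronal enolase, had 18, 25 and 29 counts in null and 137, 70 and 136 in OE (log2 2.11, SE 0.43, edgeR adjusted p = 0.133). Its groups did not overlap, and its share of enolase FPKM ran from 0.0486% to 0.747% in fat. B and T cell markers were higher in the same OE libraries, as were macrophage markers (189 to 428 CPM in null and 650.2 to 1208 CPM in OE) and cell division markers (19.2 to 28.2 and 32.6 to 112 CPM), and their part in the Eno2 difference was not tested. Fbp1 (-1.47, SE 0.43, adjusted p = 0.167), Slc16a7 (-0.61, SE 0.19, adjusted p = 0.178) and Hnrnpa1 (0.81, SE 0.24, adjusted p = 0.172), a splicing factor known to act on Pkm, had the smallest p of their lists.

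Finally, the effect of OE was compared between the tissues. By edgeR's interaction contrast 0% of 17070 genes passed, with 2163 at an unadjusted p under 0.05, and DESeq2 called 406 as higher and 91 as lower in fat relative to liver, with 0 members by either tool and 0 of the 10 rows at an unadjusted p under 0.05 by edgeR. The smallest p belonged to Pklr, whose OE effect was lower in fat than in liver by a log2 difference of -1.44 (SE 0.73, 95% interval -3.03 to 0.15, edgeR adjusted p = 0.43). The difference for Ldha, whose estimate was lower in OE in both tissues, was 0.34 (SE 0.31, interval -0.33 to 1.01). For Eno3 and Pfkm the intervals ran from -3.15 to 2.96 and from -3.68 to 1.41. With 1 library left out the Pklr difference ran from -2.62 to -1.19 and the Ldha difference from 0.02 to 0.38. With the 3 muscle-high fat libraries left out, 1 gene passed as higher and 257 as lower of 18872 tested by edgeR, and Pklr was the 1 member among them, at -3.18 (edgeR adjusted p = 0.013). There fat null is a lone library, the one with the most hepatocyte reads, and is assumed to vary as the other groups do.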

How the data were processed

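Gene counts and FPKM were deposited for 12 libraries. The authors mapped reads of non-strand-specific libraries with STAR 2.5 (a later release is named as well) and made the deposited counts with HTSeq 0.6.1. Their methods name the human genome, but the identifiers are mouse genes, and 98.1% stand at their GENCODE M21 (GRCm38) positions. The FPKM, also made by the authors, equal counts over gene length and a size factor over the 12 libraries within 1% for 100% of 252371 values above 0. Tables of the authors' own comparisons (fold changes and p-values) and of group means were not used.

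Counts were tested with edgeR 4.0.16 (R 4.3.3, TMM, filterByExpr, quasi-likelihood test, Benjamini-Hochberg over all genes tested, adjusted p under 0.05) within each pair of groups, with an interaction contrast over 12 libraries. DESeq2 1.42.0, limma 3.58.1 on log2(FPKM + 1) and log2(FPKM + 0.1), other scalings, filters, samples and a replicate block were alternatives. The fits were tested on simulated data. Shares were tested by two-sided exact permutation. All members are named, with family partners and at most 4 genes per further list with the smallest p. Some genes these rules would name, and the results that need them, are not reported here. The members and lists were chosen with earlier results of these data known. The study counts the fat libraries as separate mice. For liver the labels number the libraries only, so those p-values measure the spread between libraries, which may be technical.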

Additional observations from a re-analysis of the deposited data

How the results depend on the processing

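With every setting of the edgeR, DESeq2 and limma fits, 0 members passed between vectors in liver and in fat, and 0 in the interaction except 1 (Pklr) with the muscle-high fat libraries left out. Between tissues 8 to 10 rows passed. Ldha did not pass there with DESeq2's size factors, without a filter, with at least 10 counts in every library, or with 5 of 6 libraries left out in turn (-0.66 to -0.41 over all 6). The labels number the libraries 1 to 3 in each group. Same-numbered libraries correlated at 0.219, 0.184 and 0.0883 in liver, each best with its own number. In fat they correlated at 0.0113, -0.122 and 0.0298, none best with its own number. Between liver null and fat null the values were 0.241, 0.0282 and 0.139, 2 of 3 best with their own number. The labels do not state pairs and the main fits took none, but these values do not settle whether the liver numbers are pairs. With the replicate block Ldha between tissues was -0.60 (adjusted p = 0.0637), 17 genes passed in liver and 168 in fat, and 0 members in either.

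Of the estimates whose sign turned, Eno1 and Ldha between tissues had passed and the others had not. With library size alone these were 0.053 (Eno1) and 0.29 (Ldha), Eno1 in liver 0.058 and the interaction of Pfkl 0.0067. Pklr in liver, main value 0.00, was -0.0072 with DESeq2, -0.0045 with its size factors, -0.0259 with 12 libraries in one fit, -0.0339 with the replicate block, -0.0733 and -0.074 with limma and a pseudocount of 1 and 0.1, and -0.27 to 0.25 with 1 library left out. Pkm in fat was -0.0212 without a filter and -0.0478 and -0.0481 with limma. The Eno3 interaction was 0.35 with the replicate block and 0.0202 with limma on log2(FPKM + 0.1). With the muscle marker covariate Eno3 in fat was 0.27. With the muscle-high fat libraries left out, fat estimates were -0.0628 (Pfkl), 0.76 (Pfkm), 0.12 (Aldoa), 0.89 (second Aldoa row) and 1.75 (Eno3), and interactions 0.47 (Pfkm), -0.0381 (Eno1) and 2.08 (Eno3). As shares of counts, the vector difference in liver was 0.0491 points for Pfkl and -0.0058 for Pfkm. The cause was not tested.

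With 1 library left out, further ranges that crossed 0 were, in liver, -0.20 to 0.59 (Pfkp), -0.0741 to 0.0708 (Eno1) and -0.42 to 0.0154 (Pkm), in fat -0.43 to 0.19 (Pkm), and in the interaction -0.25 to 0.082 (Pfkl), -0.78 to 0.0098 (Pfkp), -1.79 to 0.27 (Eno3) and -0.27 to 0.49 (Pkm). In percentage points, share differences ran in liver from -4.34 to 1.93 (Pfkl), -2.26 to 4.86 (Pfkm), -0.524 to 0.326 (Pfkp) and -0.823 to 0.15 (Pkm), and in fat from -1.12 to 7.17 (Pfkp), -0.931 to 32.0 (Eno1), -32.4 to 0.549 (Eno3) and -1.03 to 2.16 (Ldha). The number of shares free of overlap between vectors ran from 0 to 5 in liver and 0 to 4 in fat when a library was left out, where 3 against 2 libraries overlap less readily. Over all genes, calls between vectors as higher and lower were 0 and 0 by edgeR in both tissues, but 45 and 49 (liver) and 1253 and 193 (fat) by DESeq2, 180 and 147 and 723 and 80 without a filter, 77 and 69 in liver without liver OE 2, 765 and 102 in fat with 12 libraries in one fit and 1957 and 1294 in fat without fat OE 2. Interaction calls were 0 and 0 by edgeR, 406 and 91 by DESeq2, 426 and 53 without a filter, 700 and 511 without fat OE 2 and 1 and 257 without the muscle-high libraries.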
